A study of Mus musculus with 6 samples.

Results

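The 9 genes described here encode enzymes that carry squalene, and the step that forms it, on to cholesterol: Fdft1, Sqle, Lss, Cyp51, Msmo1, Nsdhl, Hsd17b7, Ebp and Dhcr7. They were chosen by gene symbol from a table of 51826 mouse genes, where each symbol has 1 row, and all 9 were among the 19027 genes that passed the filter on low counts. Ovarian RNA was sequenced in 3 groups of 2 libraries, all from mice of the ICR strain, an outbred stock. One group is labelled as a model of ovarian hyperstimulation syndrome (OHSS) that received nintedanib (bibf1120), an inhibitor of vascular and other growth factor receptor kinases, a second is the OHSS model without the drug, and the third carries the name COH. The labels used here do not spell out COH, and give no age, hormone schedule, drug dose or time, nor whether replicate libraries stem from different animals. The p-values therefore measure only the spread between these libraries, which may be technical.

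Cholesterol is made from acetyl units through mevalonate and farnesyl diphosphate. Squalene synthase, epoxidase and lanosterol synthase then build the first sterol, and a set of demethylases, reductases and an isomerase trims it to cholesterol. When membrane sterol is low, the transcription factor SREBP-2 is released from its retention by Insig proteins and raises the transcription of most of these genes. In the ovary, cholesterol is the starting material of all steroid hormones, and luteal cells take up most of theirs from lipoproteins. Hsd17b7 has a second role there, since its enzyme also turns estrone into estradiol and is abundant in the corpus luteum.

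Total counts ran from 28498435 to 34716751 per library, and mitochondrial transcripts took 5.21 to 7.10% of counts. Markers of the ovary were present in every library: the summed level of 8 granulosa cell markers was 4768 to 5036 CPM (counts scaled here to an effective library size) in OHSS with nintedanib, 3221 to 3222 CPM in OHSS and 3005 to 3021 CPM in COH. Of 8 luteal markers the sum was 20060 to 21980, 26500 to 30500 and 20320 to 20540 CPM in the same order of groups. Of 6 adipocyte markers, 3 stayed under 1 CPM, 1 of them at 0 in all libraries, and Plin1 was the highest at 28.9 to 76.0 CPM. Of 4 hepatocyte markers, 3 stayed under 1 CPM, 2 of them at 0 in all libraries, and Apoa1 had 5.68 to 13.7 CPM. In bulk tissue, fewer cells of a type and less RNA per cell cannot be told apart.

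SREBP-2 acts at promoters beside the factor NF-Y, which binds the letters CCAAT. RefSeq promoter windows (GRCm38.p6, 250 bases before to 50 after a start) were matched by symbol for 7 of the 9 genes, with 9 windows in all because Dhcr7 has 3, and Fdft1 and Sqle were not matched. Stretches ahead of 4 genes are shown because they differ in how their gene behaved: Nsdhl and Lss, which were high in both OHSS libraries, Ebp, which moved little, and Hsd17b7, which did not follow the others. Each is the part of the window before the most upstream annotated start, and the capitals mark CCAAT on the printed strand or, read as ATTGG, on the opposite one.
Nsdhl, chrX:72918271-72918520, plus strand: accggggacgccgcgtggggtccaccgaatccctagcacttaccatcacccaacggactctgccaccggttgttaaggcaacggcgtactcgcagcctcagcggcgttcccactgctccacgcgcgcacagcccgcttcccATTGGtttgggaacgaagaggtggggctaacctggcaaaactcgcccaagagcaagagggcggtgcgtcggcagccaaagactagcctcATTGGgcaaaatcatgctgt
Lss, chr10:76531355-76531587, plus strand: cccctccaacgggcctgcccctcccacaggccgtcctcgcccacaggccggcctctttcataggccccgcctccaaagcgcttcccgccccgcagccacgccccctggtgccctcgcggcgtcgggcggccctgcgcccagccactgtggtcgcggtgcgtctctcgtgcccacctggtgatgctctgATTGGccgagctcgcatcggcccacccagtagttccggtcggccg
Ebp, chrX:8193513-8193762, minus strand: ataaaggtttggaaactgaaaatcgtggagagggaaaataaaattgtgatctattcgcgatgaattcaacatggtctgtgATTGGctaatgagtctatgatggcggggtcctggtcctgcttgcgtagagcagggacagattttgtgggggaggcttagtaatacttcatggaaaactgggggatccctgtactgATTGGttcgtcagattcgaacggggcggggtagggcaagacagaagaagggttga
Hsd17b7, chr1:169969242-169969455, minus strand: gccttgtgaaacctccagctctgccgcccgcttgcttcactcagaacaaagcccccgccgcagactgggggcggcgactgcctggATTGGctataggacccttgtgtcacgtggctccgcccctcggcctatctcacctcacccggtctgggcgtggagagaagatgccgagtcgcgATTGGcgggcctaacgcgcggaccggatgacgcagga
On either strand, CCAAT was found in 7 of the 9 windows and at least 2 times in 5, against 37.4% and 11.7% of all 32851 RefSeq windows. All 7 matched genes, Hsd17b7 among them, had at least 1 window with CCAAT, against 41.1% of 27025 genes. The GC box GGGCGG, a site of Sp1, was in 8 of 9 windows and in 35.7% of all, and overlapped none of the 16 CCAAT matches. The core of the classical sterol regulatory element, TCACNCCAC, was in 0 of 9 windows and in 1.24% of all. These are matches of letters and not measured binding sites. The shares are over all RefSeq windows and not over those of the genes tested here, and the action of SREBP-2 at these genes was not tested.

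Compared per length, the 9 genes spanned a wide range of levels in every group. With CPM divided by the length of all annotated exons (GENCODE M21, in kilobases), Hsd17b7 averaged 96.9 ± 21.9 in OHSS with nintedanib, 296 ± 233 in OHSS and 221 ± 18.5 in COH (SD, n = 2 each). Cyp51 followed with 92.3 ± 28.7, 125 ± 15.6 and 55.2 ± 8.48 CPM per kilobase. In COH the next were Fdft1 at 44.6 ± 0.890 and Nsdhl at 44.0 ± 0.0798, then Dhcr7 at 31.3 ± 17.2, Msmo1 at 27.8 ± 2.55, Ebp at 24.6 ± 1.57 and Sqle at 24.4 ± 3.81. Lss was last at 10.5 ± 2.96, 23.9 ± 8.66 and 7.64 ± 1.09 CPM per kilobase in the 3 groups. Its annotated exon length of 10787 bases may exceed the transcripts present, as its longest annotated transcript has 6992 bases. For Msmo1 these lengths were 6144 and 2969 bases, so its place in the order depends on the length used. The other enzymes were divided by the same kind of length, so their order has this limit too. In OHSS, Nsdhl at 96.6 ± 2.32 stood above Fdft1 at 64.6 ± 6.35, with Dhcr7 at 56.5 ± 6.55, Msmo1 at 55.0 ± 4.30, Sqle at 49.0 ± 9.35 and Ebp at 29.6 ± 3.51 after it. With nintedanib these 6 stood at 59.5 ± 12.4, 58.8 ± 11.4, 54.5 ± 2.55, 35.6 ± 1.15, 28.7 ± 1.36 and 22.4 ± 1.80 CPM per kilobase, taken in that order of genes. Neighbours from Dhcr7 to Sqle in COH differed by little more than the SD of their libraries or by less, Fdft1 and Nsdhl overlapped in COH and with nintedanib, and Fdft1 to Sqle in OHSS overlapped from each gene to the next. Hsd17b7 and Cyp51 lay within each other's spread in OHSS with nintedanib and were apart in COH.

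**Figure D1:**
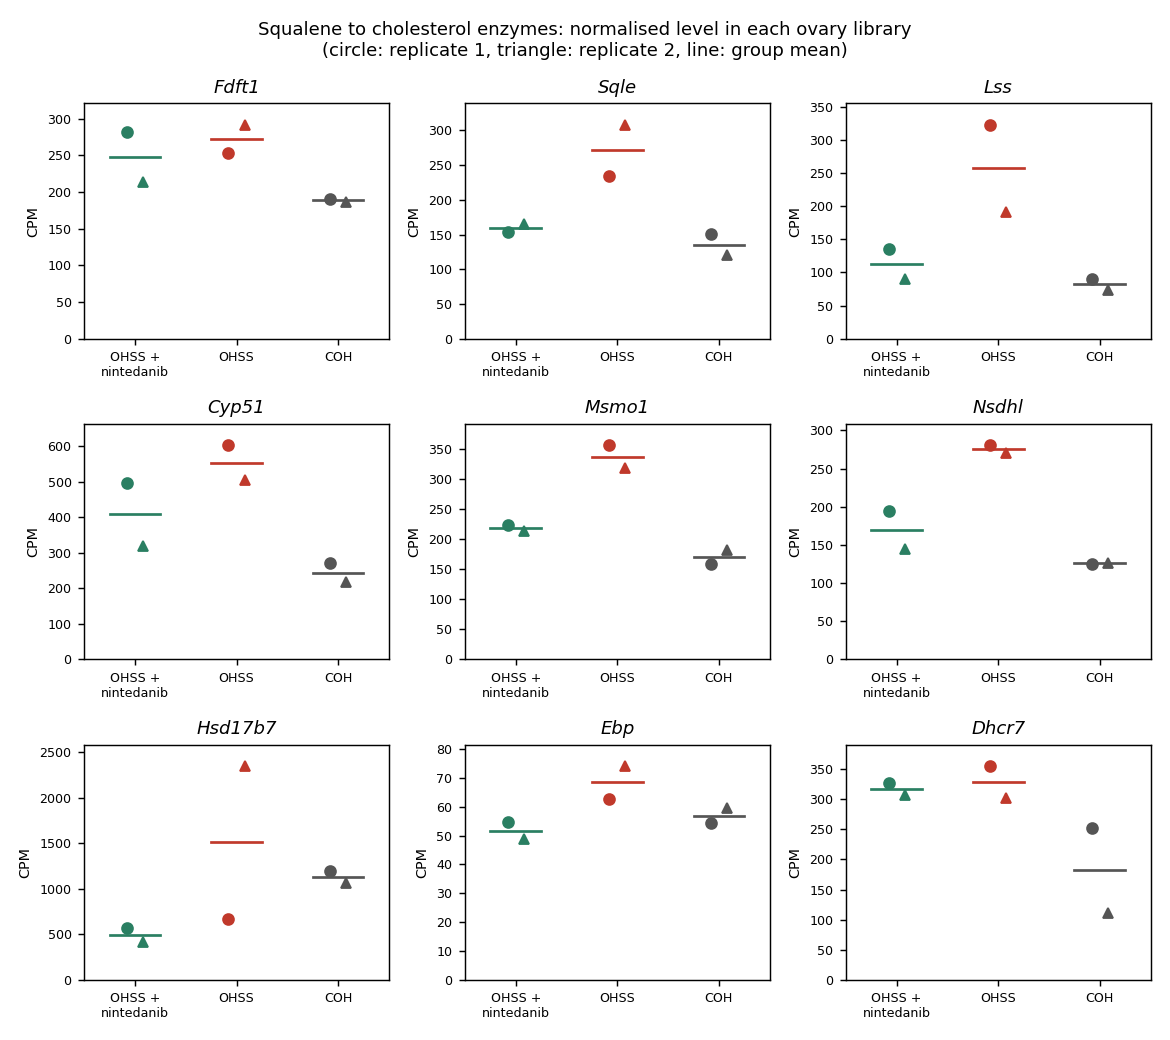
Normalised level (CPM) of each of the 9 enzymes in the 6 ovary libraries, by group, with circles for replicate 1, triangles for replicate 2 and a line at the group mean. For Sqle, Lss, Cyp51, Msmo1, Nsdhl and Ebp both OHSS libraries stand above the other 4, by little for Cyp51 and Ebp. The OHSS libraries of Hsd17b7 lie far apart at 670.2 and 2349 CPM.

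OHSS against COH asks which transcripts differ in the syndrome model. The levels of 8 of the 9 enzymes were higher in both OHSS libraries than in both COH libraries, where 21.2% of all genes tested were, and 0 were lower in both, where 22.9% of genes were. All 9 had higher means and 0 lower ones, against 49.6% and 50.4% of genes. The median log2 fold change was 0.99, with members from 0.27 to 1.64, against a median of -0.0030 over all genes tested and a 90th percentile of 0.64. In edgeR (quasi-likelihood test, p adjusted by Benjamini-Hochberg over all genes), 0 of the 9 passed at 0.05, against 0.0105% of all genes as higher and 0% as lower. Their adjusted p ran from 0.182 to 0.854. At an unadjusted edgeR p under 0.05 there were 6 members, all higher, against 4.59% of genes as higher and 4.24% as lower. DESeq2 called 5 as higher, which were Sqle, Lss, Cyp51, Msmo1 and Nsdhl, and 0 as lower, against 1.4% and 0.791% of genes, and limma voom called 0 of the 9 and 0 genes in all. The first 3 steps, then the demethylation enzymes, then the last steps are taken in turn, with every library's value.

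Fdft1, squalene synthase, which joins farnesyl units and commits them to sterols, had 254 and 292 CPM in the OHSS libraries, against 191 and 186 CPM in COH. The groups were apart, by 0.53 on the log2 scale (SE 0.162, adjusted p = 0.535 by edgeR). Sqle, the epoxidase that adds oxygen to squalene and limits flux in many cells, had 235 and 308 CPM in OHSS, against 150.4 and 121 CPM in COH. The OHSS libraries were both above the COH libraries (log2 1.00, SE 0.180, edgeR adjusted p = 0.425, DESeq2 adjusted p = 0.000694). Lss, which folds the epoxide into lanosterol, had the largest difference of the 9, with 323 and 191 CPM in OHSS and 90.8 and 74.1 CPM in COH. The difference was 1.64 on the log2 scale (SE 0.323, adjusted p = 0.447 by edgeR, DESeq2 adjusted p = 0.000318). The 2 OHSS libraries differed 1.69-fold for Lss, but the lower of them was still above both COH libraries.

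Of the demethylation enzymes, Cyp51, a cytochrome P450 that removes the first methyl group from lanosterol, had 602 and 504 CPM in OHSS, against 270.1 and 217 CPM in COH. The log2 difference of 1.18 (SE 0.251, adjusted p = 0.468 by edgeR, DESeq2 adjusted p = 0.00276) came with groups that were well apart. Msmo1, the oxidase that starts the removal of the next methyl groups, had 356 and 319 CPM in OHSS and 159 and 182 CPM in COH. It had the smallest p of the 9, ranking 27 of 19027 genes, with a log2 fold change of 0.99 (SE 0.117, 95% interval 0.69 to 1.28, DESeq2 adjusted p = 1.94e-09). Nsdhl, the X-linked dehydrogenase that acts next, had 280.4 and 271 CPM in OHSS and 125 and 126 CPM in COH. Its libraries lay within 1.04-fold of each other in both groups, and the log2 difference was 1.14 (SE 0.158, edgeR adjusted p = 0.252, DESeq2 adjusted p = 1.42e-06). Msmo1 and Nsdhl were thus the members whose groups were furthest apart for their spread.

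Hsd17b7, the reductase that completes this demethylation, behaved otherwise. Its levels were 670.2 and 2349 CPM in the OHSS libraries, against 1196 and 1062 CPM in COH, so that 1 OHSS library was below and the other above both COH libraries. The gap of 3.51-fold between the OHSS libraries was larger than that of 96.4% of genes tested. The log2 fold change of 0.42 (SE 0.564, 95% interval -0.998 to 1.84) became -0.76 without OHSS replicate 2 and 1.07 without OHSS replicate 1. Of the 8 luteal markers, 6 were higher in the second OHSS library than in the first (Lhcgr, Cyp11a1, Akr1c18, Prlr, Sfrp4 and Ptgfr) and 2 were lower (Star and Scarb1). Prlr, the prolactin receptor, had 1046 and 1605 CPM and Ptgfr, the prostaglandin F receptor, 783 and 1484 CPM in OHSS, against 855 and 927 CPM and 735 and 876 CPM in COH. Cyp11a1, which starts steroid synthesis, had nearly equal levels in the OHSS libraries, 12309 and 12574 CPM, against 10928 and 10913 CPM in COH. Star, which brings cholesterol into mitochondria, had 2722 and 1396 CPM in OHSS and 893 and 863 CPM in COH, and Scarb1 had 3733 and 2782 CPM in OHSS and 2197 and 1851 CPM in COH. The part of luteal cell content in the Hsd17b7 values was not tested.

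At the end of the pathway, Ebp, an X-linked isomerase that shifts a double bond in the sterol ring, had 62.7 and 74.2 CPM in OHSS, against 54.3 and 59.5 CPM in COH. The groups were apart by little, with a log2 fold change of 0.27 (SE 0.134, 95% interval -0.071 to 0.60). Dhcr7, the last reductase of one branch to cholesterol, had 355 and 301 CPM in OHSS and 253 and 111 CPM in COH. The COH libraries differed 2.28-fold, more than 93.6% of genes did, and the log2 fold change of 0.85 (SE 0.377) was 0.38 without COH replicate 2 and 1.57 without COH replicate 1. With each library left out in turn, the median over the 9 stayed between 0.86 and 1.13, and edgeR called 0 members each time. The members DESeq2 called were not the same with every library left out. Each such fit leaves 1 library in a group, and the share of all genes called in it is not given, so its calls are not listed.

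**Figure D2:**
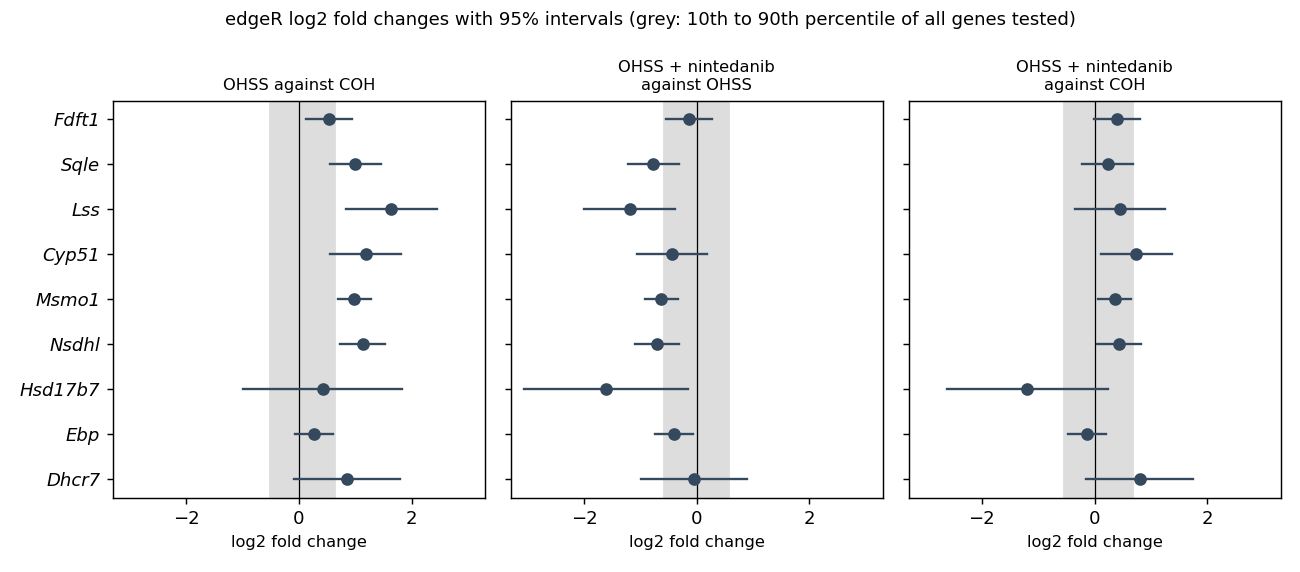
Log2 fold changes from edgeR for the 9 enzymes in the 3 comparisons, with 95% intervals as bars, and in grey the range from the 10th to the 90th percentile of all genes tested. In OHSS against COH, 6 intervals lie above 0, and those of Hsd17b7, Ebp and Dhcr7 reach below it.

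OHSS with nintedanib against OHSS asks what differs when the model receives the drug. All 9 enzymes had lower means with nintedanib, where 48.5% of all genes did, and for 7 of them both nintedanib libraries were below both OHSS libraries, where 16.9% of genes were. A mean above OHSS, seen for 51.5% of genes, and libraries wholly above OHSS, seen for 19.2%, were each found for 0 of the 9. The median log2 fold change was -0.63, against 0.010 over all genes tested and a 10th percentile of -0.58, and members ran from -1.61 to -0.050. By edgeR 0 of 9 passed the adjusted threshold, as did 0 genes in this direction and 1 gene, or 0.00526%, as higher, and the members' adjusted p ran from 0.575 to 0.981. At an unadjusted edgeR p under 0.05 there were 6 members, all lower, against 3.47% of genes as lower and 3.95% as higher. DESeq2 called 4 as lower, Sqle, Lss, Msmo1 and Nsdhl, and 0 as higher, against 0.615% and 0.655% of genes, and limma voom called 0, against 0.00526% of genes. This comparison shares the OHSS libraries with the one before, so that a high value in OHSS enters both.

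Msmo1 had 223 and 214 CPM with nintedanib, against 356 and 319 CPM in OHSS. The difference of -0.63 on the log2 scale (SE 0.116, edgeR adjusted p = 0.575, DESeq2 adjusted p = 0.00179) again had the smallest p of the 9. Nsdhl had 195 and 145 CPM with nintedanib and 280.4 and 271 CPM in OHSS, a log2 fold change of -0.70 (SE 0.157, DESeq2 adjusted p = 0.0271). Sqle had 154 and 164 CPM with nintedanib and 235 and 308 CPM in OHSS, a log2 fold change of -0.77 (SE 0.179, DESeq2 adjusted p = 0.0365). For these 3 enzymes of different steps the groups did not overlap.

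Lss had 135 and 90.2 CPM with nintedanib, against 323 and 191 CPM in OHSS, a log2 fold change of -1.19 (SE 0.319, DESeq2 adjusted p = 0.0426). Both groups spread widely for Lss, with 1.501-fold and 1.691-fold between their libraries. Cyp51 had 497 and 318 CPM with nintedanib and 602 and 504 CPM in OHSS, so that the first nintedanib library lay just under the lower OHSS library (log2 -0.44, SE 0.248, edgeR adjusted p = 0.733, and log2 -0.15 when nintedanib replicate 2 was left out). Hsd17b7 had 573 and 415 CPM with nintedanib, below 670.2 and 2349 CPM in OHSS. The log2 difference of -1.61 (SE 0.577) shrank to -0.44 when OHSS replicate 2 was left out and was -2.27 when OHSS replicate 1 was. Ebp, at 54.7 and 48.8 CPM with nintedanib and 62.7 and 74.2 CPM in OHSS, differed by -0.40 (SE 0.135).

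Fdft1 and Dhcr7, the first and the last of the 9 in the pathway, overlapped between the drug and the untreated model. Fdft1 had 282 and 214 CPM with nintedanib and 254 and 292 CPM in OHSS (log2 -0.14, 95% interval -0.54 to 0.27). Dhcr7 had 328 and 307 CPM with nintedanib and 355 and 301 CPM in OHSS (log2 -0.050, 95% interval -0.99 to 0.89). The sign of Dhcr7 turned to 0.022 when libraries were scaled by size only, and to 0.055 without OHSS replicate 1, and that of Fdft1 to 0.050 without nintedanib replicate 2. None of the members DESeq2 called in the full fit stayed called in every fit with a library left out. The shares of all genes called in those fits are not given. The median over the 9 stayed between -0.73 and -0.50.

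OHSS with nintedanib against COH asks how the treated model differs from the third group. The means of 7 of the 9 enzymes were higher with nintedanib than in COH, where 49.9% of genes were, and 2 were lower, as 50.1% of genes were, with a median log2 fold change of 0.40 against -0.00099 over all genes tested. For 6 of them the libraries did not overlap, against 22.3% of genes as higher. By edgeR 0 members passed, against 0.021% of genes as higher and 0.00526% as lower. DESeq2 called 0 of the 9, against 1.92% of genes as higher and 0.809% as lower, and limma voom 0, against 0.0105%. At an unadjusted edgeR p under 0.05 there were 3, Cyp51, Msmo1 and Nsdhl, all higher, against 5.62% of genes as higher and 4.08% as lower. Their log2 fold changes were 0.74 (SE 0.249), 0.36 (SE 0.116) and 0.44 (SE 0.156). Dhcr7, at 0.80 (SE 0.377), had as large a difference as Cyp51 with a wider spread. Fdft1 differed by 0.40 (SE 0.161), Lss by 0.45 (SE 0.316) with overlapping libraries and Sqle by 0.23 (SE 0.178).

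Hsd17b7 and Ebp had lower means with nintedanib than in COH. Hsd17b7 had 573 and 415 CPM with nintedanib, against 1196 and 1062 CPM in COH, and the groups were apart, as 22.7% of genes were in this direction. Its log2 fold change was -1.19 (SE 0.571, edgeR adjusted p = 0.548, DESeq2 adjusted p = 0.322). Ebp differed by -0.14 (SE 0.135) with overlapping libraries. The median of the 9 was 0.20 without nintedanib replicate 1 and 0.58 without nintedanib replicate 2. The members DESeq2 called were not the same with every library left out, and the shares of all genes in those fits are not given.

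**Figure D3:**
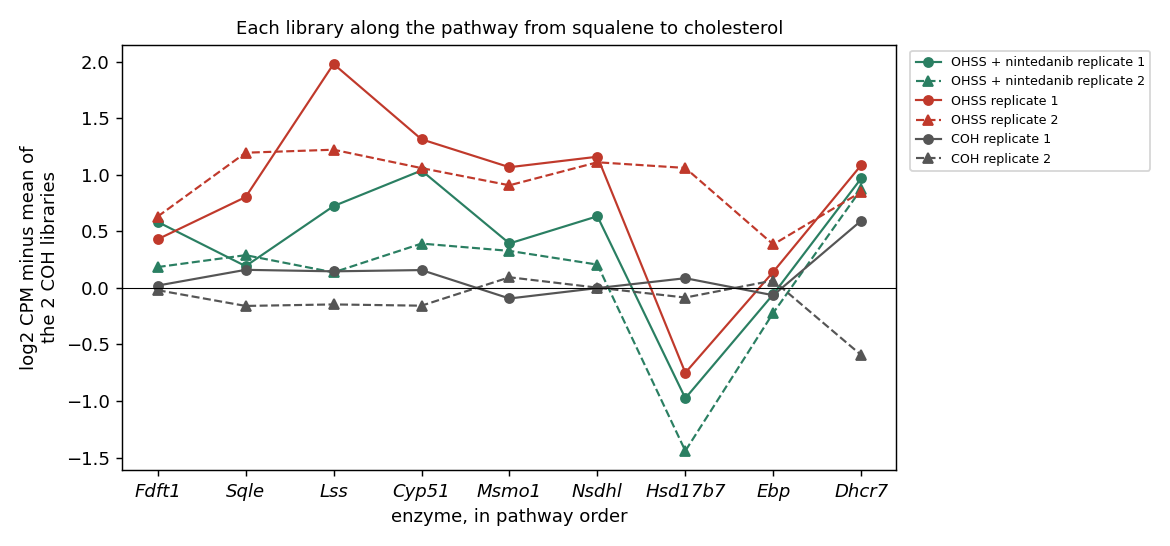
Log2 CPM of each enzyme in each library, less the mean of the COH libraries, with the enzymes in pathway order and 1 line per library (circles and solid lines for replicate 1, triangles and dashed lines for replicate 2). From Sqle to Nsdhl both OHSS lines lie above both nintedanib lines, though for Cyp51 the first nintedanib library nearly meets the second OHSS library, and at Hsd17b7 3 lines drop below the COH libraries.

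Seen by library, the median position of the 9 enzymes on the log2 scale was 0.58 and 0.21 above the COH mean with nintedanib and 1.07 and 1.06 above it in OHSS, while the COH libraries lay at 0.086 and -0.086. Over all genes tested that median was between -0.0058 and 0.0038 in every library. The OHSS libraries were thus alike in their median, though the single enzymes ran from -0.75 to 1.98 in the first and from 0.38 to 1.22 in the second. The summed level of the 8 enzymes other than Hsd17b7 was 1869 and 1500 CPM with nintedanib, 2469 and 2261 CPM in OHSS and 1295 and 1076 CPM in COH (a sum chosen after the values were seen). With Hsd17b7 included, the sums were 2443 and 1916, 3139 and 4611, and 2490 and 2138 CPM in the same groups, and the nintedanib and COH libraries overlapped.

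Over the 6 libraries, 6 of the enzymes varied much alike. Pearson's r of a member with the mean of the other 8 (each standardised) was 0.97 for Nsdhl, 0.92 for Sqle, 0.90 for Msmo1, 0.89 for Lss, 0.88 for Cyp51 and 0.83 for Fdft1. It was 0.67 for Ebp, 0.55 for Dhcr7 and 0.22 for Hsd17b7. Msmo1 and Nsdhl had the highest pairwise r, 0.97, and Hsd17b7 was closest to Ebp, at 0.80. These r describe 6 libraries that share their group structure, and no p is given for them. Of 4068 other genes with a mean of at least 5 CPM and an SD of log2 CPM of at least 0.25, the 10 most like the mean pattern were Mal, Wt1, Sec16a, Zfyve27, Zfp53, Lactb2, Cyp2d22, Shpk, Man2a2 and Dusp8, with r from 0.96 to 0.99. Insig1, the sterol-responsive retention factor of SREBP, ranked 21 among them with r = 0.93 and Scarb1, the lipoprotein receptor that takes up cholesterol esters, ranked 137 with r = 0.82.

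The means of the enzymes that precede squalene had the same signs of difference. Of 9 mevalonate pathway genes, 9 had higher means in OHSS than in COH, with a median log2 fold change of 0.52, and 9 had lower means with nintedanib than in OHSS, with a median of -0.35. EdgeR called 0 of them in either comparison, and its unadjusted p was under 0.05 for 6 in the first and 3 in the second. DESeq2 called 4 and 0. With nintedanib against COH, 8 of the 9 had higher means and 1 a lower one, with a median of 0.23. There edgeR called 0, its unadjusted p was under 0.05 for 3, all higher, and DESeq2 called 2. Idi1, which supplies an isoprene unit for farnesyl diphosphate, had 168 and 175 CPM with nintedanib, 274 and 236 CPM in OHSS and 113 and 93.3 CPM in COH.

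**Figure D4:**
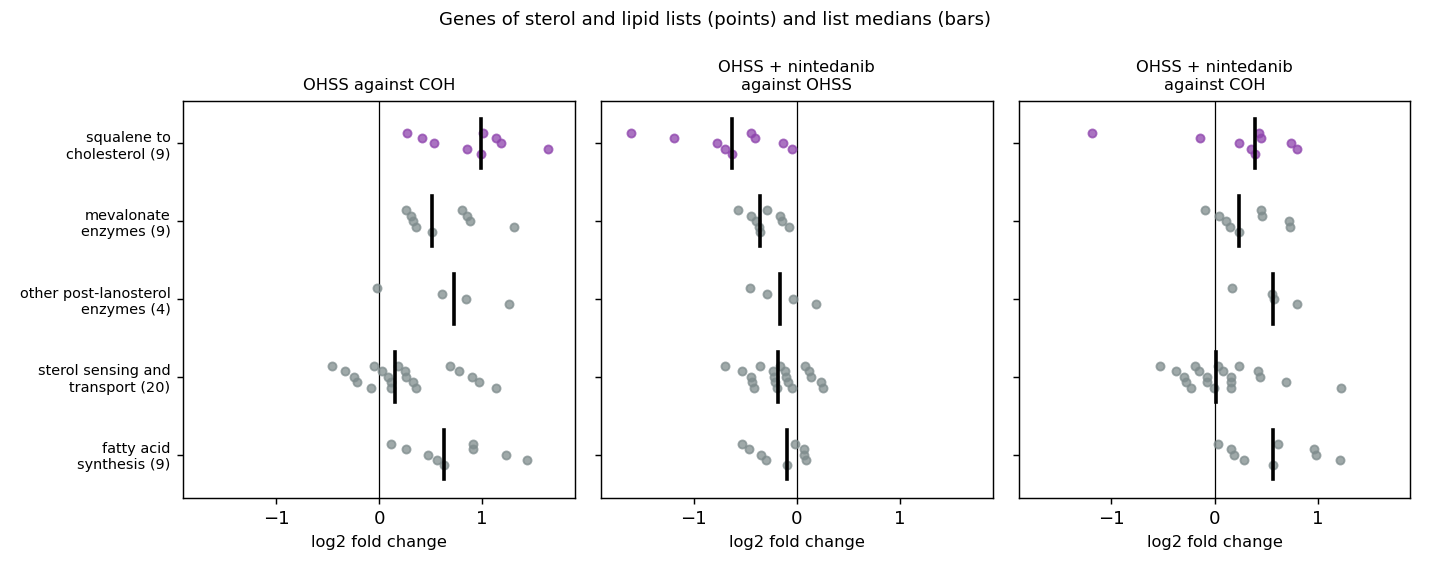
Log2 fold changes of single genes (points) and their median (bars) for the 9 enzymes, for genes before squalene, for other enzymes after lanosterol, for sterol sensing and transport and for fatty acid synthesis, in the 3 comparisons. In OHSS against COH the medians are 0.99, 0.52, 0.73, 0.15 and 0.63 from top to bottom.

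A list of other enzymes between lanosterol and cholesterol, with 4 genes measured, held Tm7sf2 and Lbr, which reduce the same double bond, and Sc5d, a desaturase, among others, and Faxdc2, also listed, had no row by that symbol. In OHSS against COH, 3 of the 4 had higher means and an unadjusted edgeR p under 0.05, 0 passed the adjusted threshold and DESeq2 called 2. Sc5d had 563 and 443 CPM with nintedanib, 876 and 502 CPM in OHSS and 337 and 239 CPM in COH. Lbr, which is also a receptor of the nuclear lamina, differed by -0.020 (SE 0.119) between OHSS and COH. The list's median was 0.73 in OHSS against COH, -0.16 with nintedanib against OHSS and 0.56 with nintedanib against COH.

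Genes that sense or move sterols were more mixed in sign than the squalene to cholesterol enzymes. Of 20, 14 had higher means in OHSS than in COH (median 0.15) and 15 had lower means with nintedanib than in OHSS (median -0.18). EdgeR called 0 in either, and DESeq2 called 3 higher and 1 lower. Insig1 had 124 and 121 CPM with nintedanib, 194 and 204 CPM in OHSS and 82.9 and 97.8 CPM in COH, and its 3 groups did not overlap. Srebf2, which encodes SREBP-2, had 278 and 261, 340 and 389, and 281 and 286 CPM.

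Fatty acid synthesis genes, many of them targets of the related SREBP-1, had higher means for 9 of 9 in OHSS against COH (median 0.63) and for 9 of 9 with nintedanib against COH (median 0.56). The nintedanib libraries were unlike, with summed levels of 6878 and 4103 CPM, against 5954 and 5875 CPM in OHSS and 4120 and 4054 CPM in COH. In the second nintedanib library, Acly, Acaca and Scd2 were below both COH libraries, and the rest of the list was above both. With nintedanib against OHSS the median was -0.097, with 6 of 9 lower. EdgeR called 0 of them, and at an unadjusted p under 0.05 there were 4 in each comparison with COH and 0 between the OHSS groups. DESeq2 called 3 in OHSS against COH, 2 with nintedanib against COH and 0 between the OHSS groups. Scd1, a desaturase, had 351 and 205 CPM with nintedanib, 398 and 370.1 CPM in OHSS and 159 and 126 CPM in COH. Of 10 steroid hormone synthesis genes, which use the cholesterol, 7 had higher means in OHSS than in COH and 3 lower ones (median 0.23). EdgeR called 0 and DESeq2 called 1. With nintedanib against COH the counts were also 7 and 3 (median 0.19), with 0 called by edgeR and 2 by DESeq2. The largest log2 fold changes of this list were those of Cyp17a1, 1.64 (SE 0.656) and 2.25 (SE 0.669) in these comparisons.

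Lists of genes for RNA quality, handling and other cell types were measured in the same libraries, and edgeR called 0 of their genes in every comparison. All 10 mitochondrial transcripts listed had higher means in OHSS than in COH (median log2 fold change 0.34) and lower means with nintedanib than in OHSS (-0.37), the same directions as the enzymes, and DESeq2 called 0 and 1 of them. Their summed level was 49340 to 52870 CPM with nintedanib, 63430 to 64950 CPM in OHSS and 48260 to 56670 CPM in COH. Of 9 immediate early genes, 8 had lower means in OHSS than in COH (median -0.68), of which DESeq2 called 3. With nintedanib against OHSS, 6 of these genes had higher means and 3 lower ones (median 0.28, DESeq2 called 1 as higher). The summed luteal markers were also highest in OHSS, with 8 of 8 higher than in COH (median 0.63) and 7 of 8 lower with nintedanib than in OHSS (median -0.42), and Star, Cyp11a1 and Scarb1 stand both there and in the steroid or sterol lists. Of 6 endothelial markers, 6 had lower means in OHSS than in COH (median -0.22, DESeq2 called 1) and 6 had higher means with nintedanib than in OHSS (median 0.38, DESeq2 called 2). Of 8 granulosa cell markers, 8 had higher means with nintedanib than in OHSS (median 0.56, DESeq2 called 1), and of 5 macrophage markers 5 had lower means there (median -0.36, DESeq2 called 1). Of 8 oocyte markers, 5 erythroid markers and 4 lymphocyte markers, all had lower means in OHSS than in COH, with medians of -0.52, -0.86 and -0.58, and DESeq2 called 0. The part of these lists in the enzymes' values was not tested.

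The members' counts were high, from 1565 for Ebp to 71201 for Hsd17b7 in a library. Exons of Fdft1 share 774 bases (18.3% of their length) with Ctsb on the opposite strand. Ctsb had up to 40700 counts in a library, against at most 8846 for Fdft1. Exons of Cyp51 share 166 bases (3.76%) with Akap9 and those of Lss 381 bases (3.53%) with an antisense gene. The use of strand in counting is not given in the sources used here, so reads in these overlaps cannot be assigned. Of the 9 enzymes Fdft1 has the largest share of its exons in such an overlap. A processed copy of Fdft1, Gm6781, matches 1249 bases at 97.4% identity and had at most 7 counts. A stretch of Msmo1 of at most 203 bases recurs in many other genes.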

How the data were processed

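RNA of 6 mouse ovary libraries was measured by sequencing. The authors deposited raw whole-number counts per Ensembl gene, with symbols beside them, per the file headers, and read summaries per library, used here as other values for read totals. Per the submitters' processing notes, StringTie 1.3.3b, HISAT2 2.1.0 and Trimmomatic 0.36 were used with build mm8. The role of each tool, the counting program, the annotation and the use of strand were not stated in these sources. Counts summed to 144.2 to 148% of read pairs and 72.1 to 74.0% of single reads. Groups and replicate numbers came from the sample titles.

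Genes were filtered with filterByExpr and scaled with TMM factors (0.961 to 1.03) in edgeR 4.0.16 (R 4.3.3). All 3 groups were fitted together and compared by its quasi-likelihood F test, two-sided (3 residual and 2.41 prior degrees of freedom), with Benjamini-Hochberg adjustment over all genes and calls at 0.05. Standard errors were derived from the F statistic, and CPM use effective library sizes. Log2 CPM had a prior count of 2. The code was tested on simulated data. Exact permutation of 2 against 2 libraries gives no two-sided p under 0.333, so it was not used. Alternatives were RLE, upper quartile and library size scaling, no filter or one of 1 CPM in all 6 libraries, DESeq2 1.42.0, limma 3.58.1 voom, a replicate block, a fit of the 2 groups compared and each library left out. DESeq2 with libraries left out was added after seeing the data. The members, lists, motifs and alternatives were chosen with earlier results of these data known. Named genes are the 9 enzymes, up to 4 genes of each list with the smallest p, Insig1, Srebf2, Star and Scarb1, and the 10 most like the members. Prlr, Ptgfr and Cyp11a1 were named after their values were seen. Some genes the rule names are not reported here. Exon lengths and overlaps came from GENCODE M21 (GRCm38) by Ensembl ID, near copies from blastn 2.17.0 (at least 95% identity over 100 bases) and promoters from RefSeq.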

Additional observations from a re-analysis of the deposited data

How the results depend on the processing

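EdgeR called 0 of the 9 enzymes in each of the 3 comparisons under every alternative run with it and with each library left out, and limma voom also called 0. DESeq2 called 5 in OHSS against COH, 4 with nintedanib against OHSS and 0 with nintedanib against COH. With a library left out, DESeq2 called 2 to 6, 0 to 4 and 0 to 1 of them in these comparisons, and the cause of the differences between tools was not tested. The median log2 fold change of the 9 in OHSS against COH was 0.86 to 1.13 with a library left out. It was 0.92 to 1.00 under the other alternatives, where those of nintedanib against OHSS and against COH were -0.64 to -0.56 and 0.38 to 0.41. The values that changed sign, none of them past edgeR's adjusted threshold, were Hsd17b7 in OHSS against COH, from -0.76 to 1.07 with a library left out, and, with nintedanib against OHSS, Fdft1 from -0.35 to 0.050 and Dhcr7 from -0.16 to 0.055. Dhcr7 also stood at 0.022 with scaling by library size only. That scaling moved the median of all genes to 0.082 in the same comparison and the share of genes with a higher mean to 61.2%, against 51.5%.

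With the replicate block the medians were 0.98, -0.63 and 0.39, and 0 members were called in each comparison. The numbers mark no shared animal or day in the labels. The correlation of the difference between replicates 1 and 2 was -0.0023 between nintedanib and OHSS, 0.048 between nintedanib and COH and -0.00072 between OHSS and COH. Over all genes, edgeR called 2, 1 and 5 in the 3 comparisons, DESeq2 360, 223 and 449, limma voom 0, 1 and 2, the block 1, 0 and 2, and the fit of the 2 groups compared 0, 0 and 2. The effect of depth and of the number of libraries was not tested.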
